A study of Mus musculus with 8 samples.

Results

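The genes described here are the hypoxia-inducible factors (HIFs) and the proteins that control them, measured in the cerebral cortex of newborn mice. They were taken by symbol from the transcript names in the deposited files, and the 9 genes (Hif1a, Epas1, Hif3a, Arnt, Arnt2, Egln1, Egln2, Egln3 and Vhl) hold 44 of the 136202 transcripts and are 9 of the 53392 genes quantified. The study sequenced messenger RNA from cortex at postnatal day 0 (P0) in mice of the FVB/N background, 4 libraries labelled R342X mutant and 4 labelled wild type. R342X is a premature stop codon in Phf6, which lies on the X chromosome, encodes a PHD finger protein of the nucleus and is mutated in Börjeson-Forssman-Lehmann syndrome. Both groups share the strain, the age and the tissue. The labels name no sex, no zygosity, no litter and no animal. If several libraries came from 1 animal, the p-values reflect only how far these samples scatter, and that scatter may be technical. The members were chosen by symbol, but the family was selected on a measured value, the higher Hif3a level of mutants in an earlier fit of these same libraries, so the genotype differences of its 9 genes are given as a description and support nothing. Calls among them are only counted, beside the share of all genes called.

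HIFs are heterodimers of an oxygen-sensitive alpha subunit and a stable beta subunit, and both belong to the bHLH-PAS family of transcription factors. When oxygen is present, the Egln enzymes hydroxylate prolines of the alpha subunit, the von Hippel-Lindau protein Vhl recognises the hydroxylated form, and the subunit is ubiquitinated and degraded. When oxygen is short, the alpha subunit accumulates, pairs with Arnt or Arnt2 and binds hypoxia response elements near genes of glycolysis, glucose uptake and vessel growth. Much of this control acts on protein stability, which RNA levels do not measure. In brain, Epas1 is best known from vessels and glia, Arnt2 is the neuronal beta subunit, and Hif3a gives several splice forms, some of which restrain the other alpha subunits.

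The promoters of 3 of the genes are shown because these genes, apart from Epas1, had the largest fold changes between genotypes in the fit on genotype alone. Each sequence runs from 250 bases before to 50 bases after the transcription start in RefSeq (GRCm38.p6), 5′ to 3′ on the gene's own strand. Capitals mark the core of the hypoxia response element, ACGTG or GCGTG on either strand.
Hif3a (chr7:17062378-17062677, minus strand): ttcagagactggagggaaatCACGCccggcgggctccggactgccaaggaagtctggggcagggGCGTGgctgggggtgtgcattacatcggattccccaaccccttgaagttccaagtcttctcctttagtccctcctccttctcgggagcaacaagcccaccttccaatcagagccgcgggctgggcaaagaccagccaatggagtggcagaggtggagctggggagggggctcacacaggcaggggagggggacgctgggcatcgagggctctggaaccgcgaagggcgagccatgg
Egln3 (chr12:54203825-54204124, minus strand): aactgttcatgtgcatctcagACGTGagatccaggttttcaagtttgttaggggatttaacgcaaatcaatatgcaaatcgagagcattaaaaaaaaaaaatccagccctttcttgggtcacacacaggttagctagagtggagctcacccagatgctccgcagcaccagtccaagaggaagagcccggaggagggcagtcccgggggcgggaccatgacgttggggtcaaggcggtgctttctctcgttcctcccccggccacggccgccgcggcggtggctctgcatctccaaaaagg
Vhl (chr6:113623744-113624043, plus strand): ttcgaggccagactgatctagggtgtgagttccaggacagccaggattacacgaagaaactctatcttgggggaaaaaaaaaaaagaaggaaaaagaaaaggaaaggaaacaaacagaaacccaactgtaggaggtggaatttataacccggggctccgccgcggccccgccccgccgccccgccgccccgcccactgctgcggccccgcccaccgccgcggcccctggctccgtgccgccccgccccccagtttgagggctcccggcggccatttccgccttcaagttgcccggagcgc
The Hif3a promoter held GCGTG at 186 bases upstream of the start and its reverse complement at 230 bases upstream. Egln3 held 1 ACGTG at 229 bases upstream, and Vhl held neither core. Over the family, RefSeq gave 9 promoters for 8 of the 9 genes, none for Epas1, and 7 of the 9 promoters held at least 1 core. Among all 32851 promoters of the same length, 43.8% held at least 1 of the cores, 19.6% ACGTG and 32.4% GCGTG, and matches that overlap on opposite strands (CACGTG, as in Hif1a and Egln2) were counted on each strand. A match describes letters and not a bound site.

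The libraries held between 30469745 and 74266937 estimated reads, and all 4 wild-type libraries exceeded all 4 mutant libraries in depth. Phf6, the mutated gene, ran from 39.3 to 43.6 CPM (read counts scaled to a common library size by TMM) in mutants and from 72.1 to 91.9 CPM in wild type. The first principal component split the 8 libraries into 2 sets that no label accounts for. Set 1 held mutant replicates 1 to 3 and wild-type replicate 1, and set 2 held wild-type replicates 2 to 4 and mutant replicate 4. Fold changes are therefore given from a fit on genotype alone and from a fit with the set as a term. The labelled tissue was checked against 8 markers of cortical neurons, none of which was at 0, with Neurod6 at 339.9 TPM and Neurod2 at 249.1 TPM on average (TPM, a transcript share that is scaled by length). Their summed level was lower in every mutant library (1213 to 1317 TPM) than in every wild-type library (1371 to 1450 TPM), and that of 8 astrocyte markers, led by Apoe, Slc1a3 and Gja1, was higher (1065 to 1219 against 831.5 to 1014 TPM). Of the 8 neuron markers, 5 had a log2 fold change below 0 on genotype alone and 3 above it, among these Slc17a7 (0.30 ± 0.08, SE). Of the 8 astrocyte markers, 6 lay above 0 and 2 below. In bulk cortex, more cells of a type and more RNA per cell cannot be told apart.

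All 9 genes were expressed and all 9 passed the filter on low counts. Compared per length, Arnt2 was the most abundant at 139.9 ± 4.85 TPM (SD over the 8 libraries), above 94.0% of the 20097 tested genes. Egln2 followed at 87.7 ± 1.68 TPM. Egln1 (56.4 ± 1.14), Hif1a (55.9 ± 4.24) and Vhl (55.0 ± 3.12 TPM) were not separable, since Egln1 exceeded Hif1a in 5 of 8 libraries and Hif1a exceeded Vhl in 4 of 8. Arnt lay below them at 22.8 ± 1.91 TPM, Epas1 at 16.1 ± 2.77 TPM and Egln3 at 12.9 ± 2.07 TPM. Arnt was above Epas1 in 8 of 8 libraries and Epas1 above Egln3 in 7 of 8, although the ranges of these neighbours overlapped. Hif3a was the lowest, at 4.39 ± 1.19 TPM, above 38.5% of tested genes. The order was the same in both genotypes except among Egln1, Hif1a and Vhl, where Vhl ranked 3 in wild type and 5 in mutants. The spread over libraries also differed between the genes, from a coefficient of variation of 1.92% for Egln2 and 2.01% for Egln1 to 17.2% for Epas1 and 27.1% for Hif3a.

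**Figure D1:**
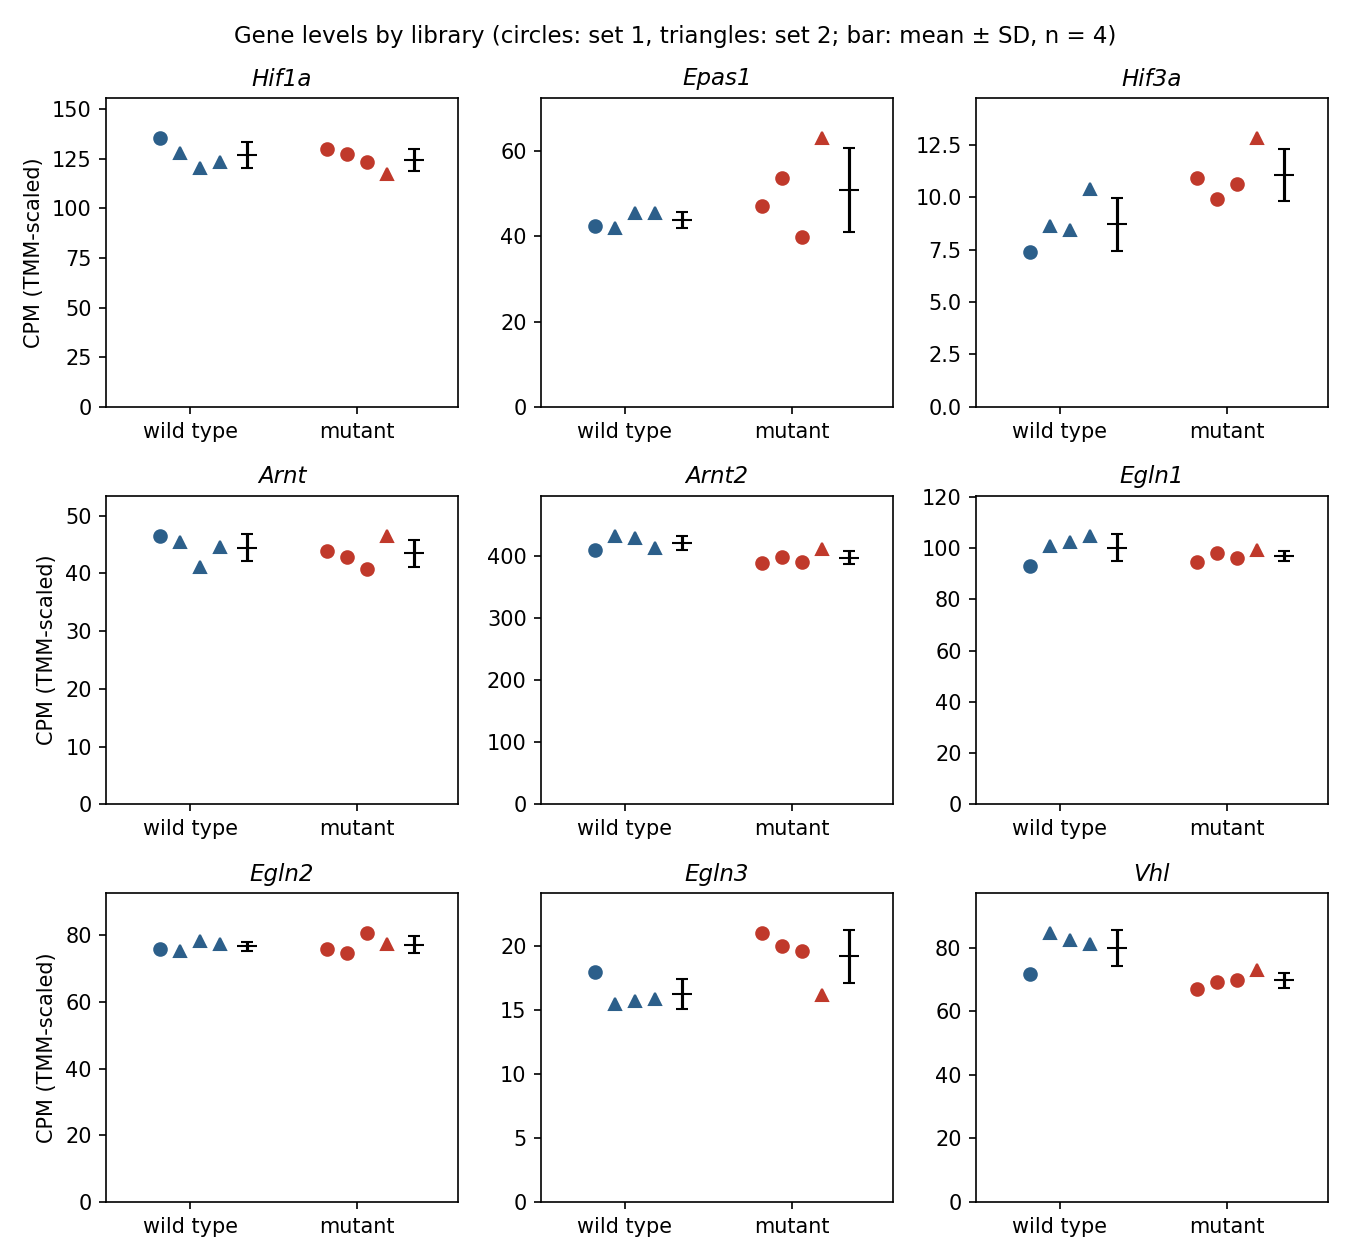
Levels of the 9 genes in CPM (y axis, starting at 0) in each wild-type and mutant library, with circles for set 1, triangles for set 2 and bars for the mean ± SD of 4 libraries. Hif3a runs from 9.91 to 12.8 CPM in mutants and over 7.38 to 10.4 CPM in wild type, and mutant replicate 4 is the highest point for Epas1, at 62.9 CPM.

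Among the alpha subunits, Hif3a differed most between genotypes in CPM and in both edgeR fits, as the choice of the family implies. Its level stood at 10.9, 9.91, 10.6 and 12.8 in mutant libraries 1 to 4 against 7.38, 8.64, 8.41 and 10.4 in wild-type libraries 1 to 4 (CPM). The groups overlapped through 1 library, wild-type replicate 4, which stood above mutant replicate 2. Mean levels were 11 ± 1.23 CPM in mutants against 8.71 ± 1.26 CPM in wild type (SD, n = 4 each), 126.8% of wild type. The log2 fold change was 0.34 ± 0.12 (SE) on genotype alone and 0.49 ± 0.09 with the library set as a term. Set 1 alone gave a log2 difference of 0.50 and set 2 alone 0.49, each with 1 library on one side. These values rest on 304 to 677 estimated reads per library, the fewest of the 9 genes. On other measures Hif3a did not differ most. In summed TPM the mutant mean was 119.0% of wild type for Hif3a and 121.4% for Epas1. The authors' deposited table gave a log2 fold change of 0.041 for Hif3a and 0.263 for Epas1, with shrinkage not stated.

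The transcripts of Hif3a did not all follow the gene. Hif3a-202, the longest form with 15 exons, starting at the promoter shown above (chromosome 7, 17031507 to 17062427, minus strand, GRCm38), carried between 95.9% and 98.0% of the gene's reads. It was at 3.13, 2.85, 2.92 and 3.42 TPM in mutant replicates 1 to 4 and at 2.09, 2.26, 2.20 and 2.67 TPM in wild-type replicates 1 to 4. Every mutant library was above every wild-type library, with means of 3.08 ± 0.26 and 2.31 ± 0.25 TPM, 133.6% of wild type. Hif3a-201, which starts at 17056679, was at most 0.17 TPM in any library. The annotated fragments Hif3a-203 (371 bases) and Hif3a-204 (461 bases) had at most 6.39 and 13.1 estimated reads per library. Their short length nevertheless gave Hif3a-203 up to 35.7% and Hif3a-204 up to 40.1% of the gene's TPM. The summed TPM of Hif3a was more scattered, at 4.77 ± 1.6 in mutants and 4.01 ± 0.59 in wild type (SD, n = 4 each). When transcript length was entered as an offset, the log2 fold change of the gene was 0.19. Of the family's 41 transcripts at a mean of at least 0.1 TPM, 2 did not overlap between genotypes, Hif3a-202 above and Vhl-201 below, where 3.88% of all such transcripts did not overlap.

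**Figure D2:**
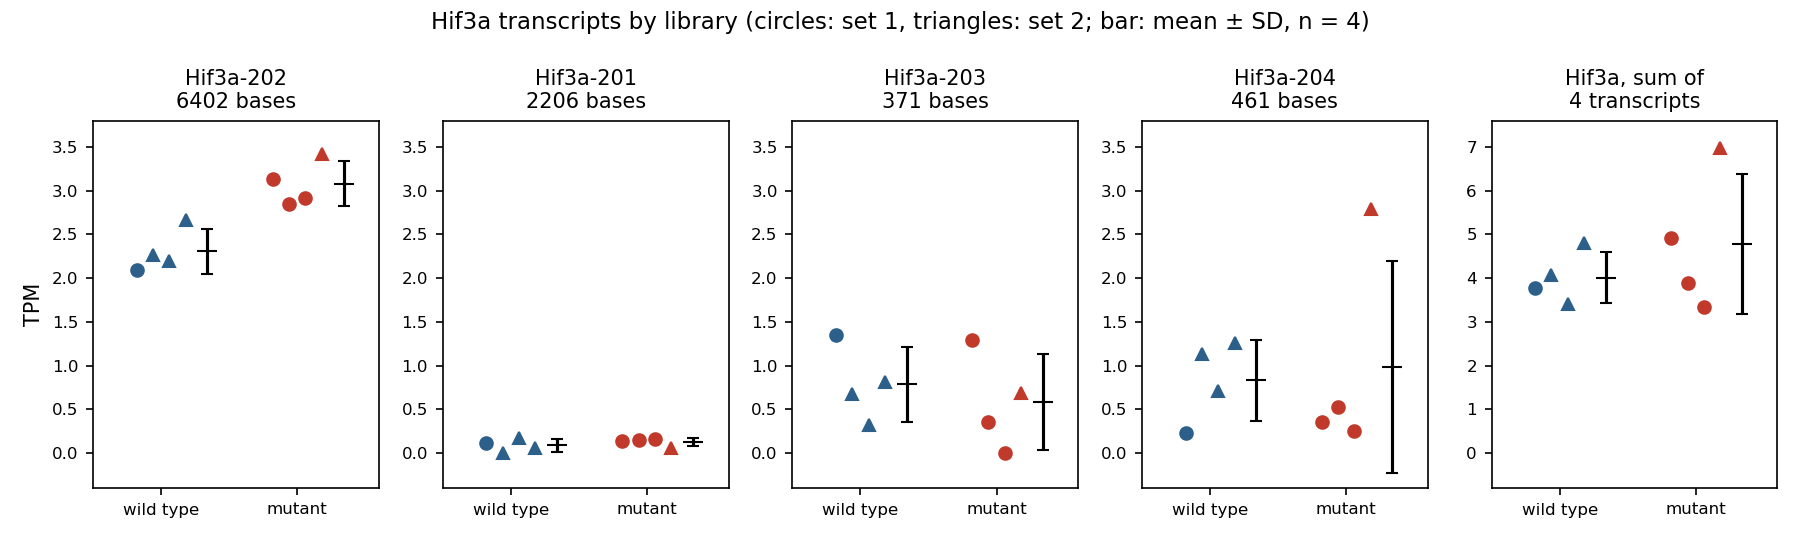
TPM of the 4 Hif3a transcripts and of their sum (y axes, the last panel on its own scale) in each library, with circles for set 1, triangles for set 2 and bars for the mean ± SD of 4 libraries. Hif3a-202 is at 2.85 to 3.42 TPM in mutants and 2.09 to 2.67 TPM in wild type, while the 2 short fragments scatter in both genotypes.

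Epas1, the gene for HIF-2alpha, varied more among mutants than among wild types. It was at 47.0, 53.6, 39.7 and 62.9 in mutant libraries 1 to 4 against 42.3, 42.0, 45.5 and 45.4 in wild-type libraries 1 to 4 (CPM). Mutant replicate 3 was below all wild-type libraries and the other 3 mutants were above them. Means were 50.8 ± 9.85 CPM in mutants against 43.8 ± 1.87 CPM in wild type (SD, n = 4 each). The log2 fold change was 0.21 ± 0.12 (SE) on genotype alone and 0.33 ± 0.09 with the library set as a term, and the difference was 0.13 in set 1 and 0.51 in set 2. It was 0.09 without mutant replicate 4 and 0.51 with the set as a term and without wild-type replicate 1. The latter only restates the set 2 difference, since set 1 then holds no wild type. Epas1 was the only gene of the family called in the authors' deposited table, with a log2 fold change of 0.263 there, where 2.78% of genes with an adjusted p were called. The sum of the endothelial markers was also highest in mutant replicate 4. Over 11 such genes, led by Cldn5, Esam and Cdh5, it was 296.1 TPM in that library. It was 237.6 to 246.5 TPM in the other mutants and 214.7 to 248.8 TPM in wild type. Mural cell markers (11 genes, led by Vtn, Rgs5 and Pdgfrb) were at 169.4 TPM there against 123.9 to 142.8 TPM in the other 7 libraries, and meningeal fibroblast markers (9 genes, led by Col1a2, Col1a1 and Dcn) at 292.0 against 182.8 to 229.6 TPM. On genotype alone, 9 of the 11 endothelial, 7 of the 11 mural and 7 of the 9 meningeal markers had a log2 fold change above 0. With the library set as a term these were 10, 10 and 8. Of all 20097 tested genes, 10115 and 9747 lay above 0 in these fits. Of the marker genes named here, the authors' table also called Cldn5, Cdh5, Vtn and Col1a2 as higher in mutants. It did not call Esam, Rgs5, Pdgfrb, Col1a1 or Dcn. Not every marker followed the sum of its list: among the mutants, replicate 4 had the lowest TPM of Flt1, Slco1a4, Cspg4 and Kcnj8. The summed choroid plexus markers (6 genes) were also highest in mutant replicate 4, at 1345 TPM against at most 1231 TPM in wild type. None of these markers was at 0 in all libraries, and their part in the Epas1 and Hif3a values was not tested.

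Hif1a, the alpha subunit induced in most tissues, was close to equal between genotypes. Its level ran from 117.2 to 130.1 CPM in mutants and over 120.5 to 135.3 CPM in wild type, and the groups overlapped over most of their range. The log2 fold change was -0.03 ± 0.05 (SE) on genotype alone and -0.09 ± 0.04 when the set was added. Hif1a has alternative first exons: Hif1a-201 starts at position 73907904 of chromosome 12 and Hif1a-202 at 73901375. Hif1a-201 carried 62.9% ± 2.48 of Hif1a TPM in mutants and 62.6% ± 1.6 in wild type (SD, n = 4 each), and an exact two-sided permutation test of the share gave p = 0.886 (0.971 adjusted over the 25 shares tested). Hif1a-202 carried 30.7% ± 1.90 and 30.2% ± 1.21 (exact permutation p = 0.686, adjusted 0.902). Of the summed alpha-subunit TPM, Hif1a made up 65.1% to 77.1%, Epas1 18.3% to 26.3% and Hif3a 4.61% to 8.62% over the 8 libraries.

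Of the beta subunits, Arnt2 held between 85.1% and 87.1% of the summed TPM, and Arnt the rest. Arnt2 was at 388.3, 398.4, 391.1 and 412.3 in mutant libraries 1 to 4 against 409.2, 432.8, 428.8 and 413.3 in wild-type libraries 1 to 4 (CPM). Only mutant replicate 4 was above a wild-type library, replicate 1. The log2 fold change was -0.08 ± 0.04 (SE), and -0.05 ± 0.04 with the library set as a term. On the TPM scale the mutant mean was 99.5% of wild type, against 94.4% in CPM, and the median of all tested genes shifted by 0.06 on the log2 scale between these scalings. Arnt ran from 40.7 to 46.4 CPM in mutants and over 41.1 to 46.5 CPM in wild type, with a log2 fold change of -0.03 ± 0.06. Arnt2 also has alternative starts, with 70.4% ± 1.52 of its TPM in Arnt2-201 (start 84410119 on chromosome 7) and 13.2% ± 1.94 in Arnt2-207 (start 84372531) in mutants, and 69.3% ± 3.11 and 14.7% ± 3.10 in wild type. The summed beta subunits exceeded the summed alpha subunits 2.06-fold ± 0.08 in mutants and 2.21-fold ± 0.09 in wild type (SD, n = 4 each).

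**Figure D3:**
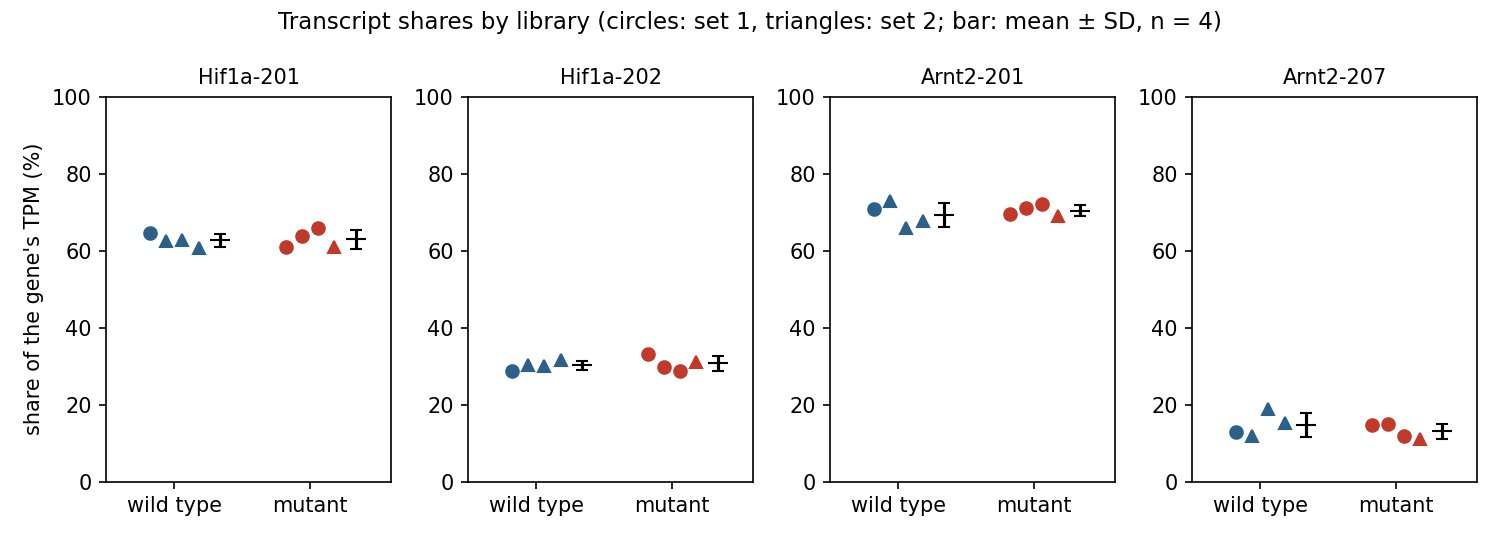
Share of the gene's TPM (y axis, 0 to 100%) carried by the 2 main transcripts of Hif1a and of Arnt2 in each library, with circles for set 1, triangles for set 2 and bars for the mean ± SD of 4 libraries. The wild-type and mutant points overlap in each panel, with Hif1a-201 at 62.6% and 62.9% on average.

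Among the prolyl hydroxylases, Egln2 and Egln1 had the lowest coefficients of variation of the family. Egln2 ran from 74.7 to 80.6 CPM in mutants and over 75.3 to 78.4 CPM in wild type (log2 fold change 0.01 ± 0.04, SE). Egln1, the main oxygen sensor of the HIF system, ran from 94.5 to 99.2 CPM in mutants and over 92.9 to 104.8 CPM in wild type (log2 fold change -0.05 ± 0.05). Egln3, which is itself a HIF target in many cells, was at 21.0, 20.0, 19.6 and 16.2 in mutant libraries 1 to 4 against 18.0, 15.5, 15.7 and 15.9 in wild-type libraries 1 to 4 (CPM). Each of mutant replicates 1 to 3 was above every wild-type library, while mutant replicate 4 lay among them. Its log2 fold change was 0.24 ± 0.09 (SE) on genotype alone and 0.11 ± 0.06 when the library set was added. The difference was 0.17 in set 1 and 0.04 in set 2. Every set 1 library was above every set 2 library, so the level of Egln3 followed the library set, and the part of the set in its genotype difference was not tested. Egln2 held 54.3% to 56.9% of the summed hydroxylase TPM over the 8 libraries, Egln1 35% to 36.9% and Egln3 6.97% to 9.80%.

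Vhl, the substrate receptor of the ubiquitin ligase that degrades the alpha subunits, was the gene of the family with the lowest mutant level relative to wild type. It was at 67.0, 69.2, 70 and 72.9 in mutant libraries 1 to 4 against 71.9, 84.6, 82.5 and 81.1 in wild-type libraries 1 to 4 (CPM). The groups overlapped only through mutant replicate 4 and wild-type replicate 1, and in each set 1 of these is alone for its genotype. Means were 69.8 ± 2.42 CPM in mutants against 80.0 ± 5.61 CPM in wild type (SD, n = 4 each), 87.2% of wild type. The log2 fold change was -0.20 ± 0.06 (SE) on genotype alone and -0.12 ± 0.04 with the library set as a term, with differences of -0.06 in set 1 and -0.18 in set 2. It was also -0.06 with the set as a term and without mutant replicate 4. That value only restates the set 1 difference, since set 2 then holds no mutant. In TPM the genotypes did not overlap, at 51.0 to 54.8 in mutants and 55.4 to 59.1 in wild type. The main transcript Vhl-201 was at 47.5, 49.2, 47.7 and 48.8 TPM in mutant replicates 1 to 4 and at 50.8, 54.7, 54.5 and 51.5 TPM in wild-type replicates 1 to 4, also without overlap. It carried 91.9% ± 2.00 of Vhl TPM in mutants and 92.2% ± 0.41 in wild type.

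**Figure D4:**
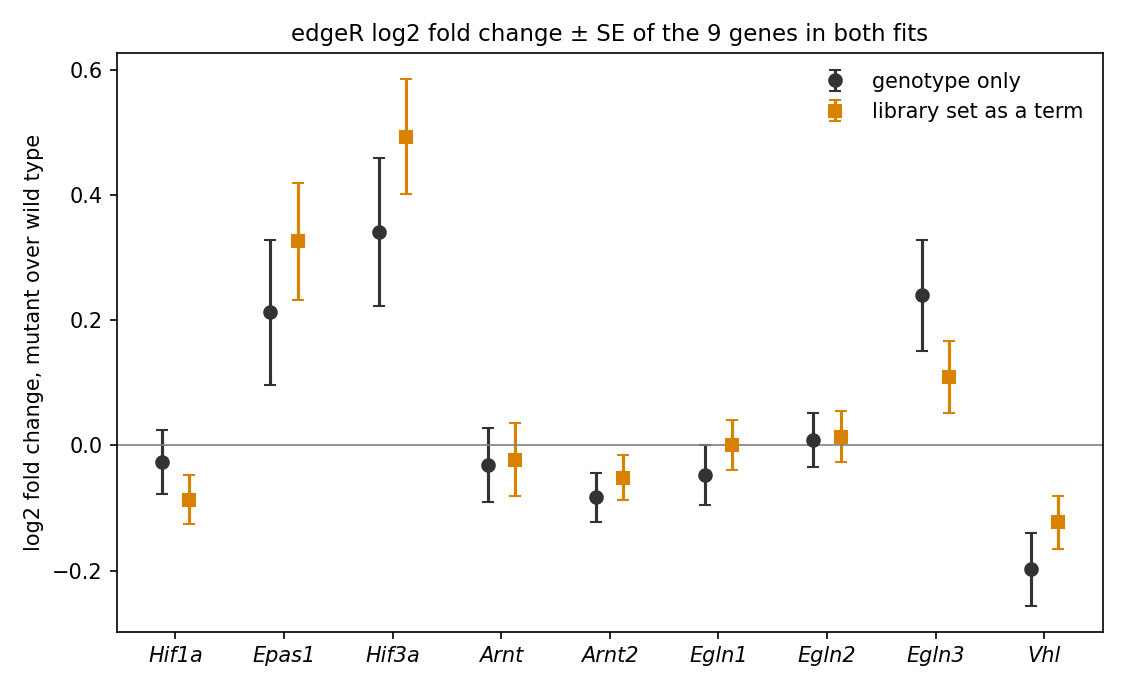
log2 fold change of mutant over wild type ± SE (y axis) for the 9 genes (x axis), from the fit on genotype alone (circles) and the fit that adds the library set (squares). Hif3a moves from 0.34 to 0.49 and Egln3 from 0.24 to 0.11 between the fits, while Arnt, Egln1 and Egln2 stay near 0 in both.

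Counted over all tested genes, 0 of the 9 genes were called in edgeR's quasi-likelihood fit on genotype alone (Benjamini-Hochberg adjusted p under 0.05), where 0.0199% of tested genes were called. At an unadjusted p under 0.05 the count was 3 of 9, beside 13.7% of all tested genes, and DESeq2 called 0 of 9 beside 2.64%. With the library set as a term, edgeR called 1 of 9, Hif3a, beside 0.602% of all tested genes. That call chose the family, so nothing is read from it or from the other counts. It was lost in each of 7 fits with the set as a term that left out 1 library, and held only without wild-type replicate 4. Without mutant replicate 3 that fit called Epas1 (log2 fold change 0.39), and on genotype alone without mutant replicate 4 Egln3 was called (0.31). The gene CPM of 0 of the 9 genes was free of overlap between genotypes, beside 6.15% of all tested genes.

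The splicing of the family, which did not enter its choice, was tested apart from gene levels. The share of the gene's TPM was compared between genotypes for 25 transcripts of Hif1a, Hif3a, Arnt, Arnt2, Egln2 and Vhl by exact two-sided permutation over the 70 assignments of the libraries. No share passed after adjustment over the 25 (smallest adjusted p = 0.714), and 1 had an unadjusted p under 0.05. That transcript was Arnt-208, a retained-intron form of 526 bases, at 3.49% ± 1.07 of Arnt TPM in mutants and 6.36% ± 1.41 in wild type (exact permutation p = 0.0286, the smallest that 4 against 4 libraries allow). It rests on at most 21.3 estimated reads per library. With 25 tests, a single transcript at the smallest possible p cannot pass this adjustment, so the test bears only on changes shared by many transcripts. The short Hif3a fragments held 11.3% ± 10.9 and 17.2% ± 15.6 of Hif3a TPM in mutants and 19.6% ± 11.3 and 20.2% ± 9.90 in wild type, too scattered for shifts of this size to be detectable at this depth.

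Genes that HIFs are known to induce were compared next, from a list of 44, of which 43 were tested. In edgeR 0 of 43 were called on genotype alone and with the library set as a term, beside 0.0199% and 0.602% of all tested genes. At an unadjusted p under 0.05 stood 13 and 10 of the 43 targets, where 13.7% of all tested genes stood in each fit. Their median log2 fold change was 0.03, with 25 above and 18 below 0, beside a median of 0.00 over all tested genes. The most abundant per length were the glycolytic genes Gapdh (706.2 ± 22.6 TPM in mutants, 733.8 ± 28.1 in wild type) and Pkm (493.9 ± 11.2 and 505.9 ± 12.8 TPM). Aldoa, which encodes the glycolytic aldolase of muscle and brain, had the smallest p, at 226.2, 234.5, 248.1 and 229.6 in mutant libraries 1 to 4 against 195.6, 207.7, 210.6 and 202.7 in wild-type libraries 1 to 4 (CPM). Its log2 fold change was 0.20 ± 0.04 (SE, edgeR adjusted p = 0.179), and every mutant library was above every wild-type library. Slc2a1, the glucose transporter of the blood-brain barrier, likewise did not overlap, at 42.8 to 47.1 CPM in mutants against 37.7 to 40.5 CPM in wild type (log2 fold change 0.19 ± 0.05, edgeR adjusted p = 0.211, and 0.0509 with the library set as a term). Vegfa, the vessel growth factor and a classical HIF target, ran from 48.1 to 56.5 CPM in mutants and over 49.1 to 53.5 CPM in wild type. In the authors' deposited table Aldoa had an adjusted p of 0.00163 and Slc2a1 of 0.00661. Another entry there under the symbol Aldoa, with a much lower mean signal of 146, had a log2 fold change of -0.009 (adjusted p = 0.859). DESeq2, run here on the summed counts, called 4 of the 43, Aldoa and Slc2a1 as higher and Stc2 and Ddit4 as lower in mutants, beside 2.64% of all genes with an adjusted p there. Stc2, a secreted glycoprotein of stress responses, stood at -0.49 ± 0.11 (edgeR adjusted p = 0.18), and Ddit4, an inhibitor of mTORC1, at -0.20 ± 0.05 (edgeR adjusted p = 0.187). Targets thus lay on both sides of 0, and without mutant replicate 4 edgeR called 3 of them, Aldoa, Slc2a3 and Ddit4, among 699 genes called in that fit.

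**Figure D5:**
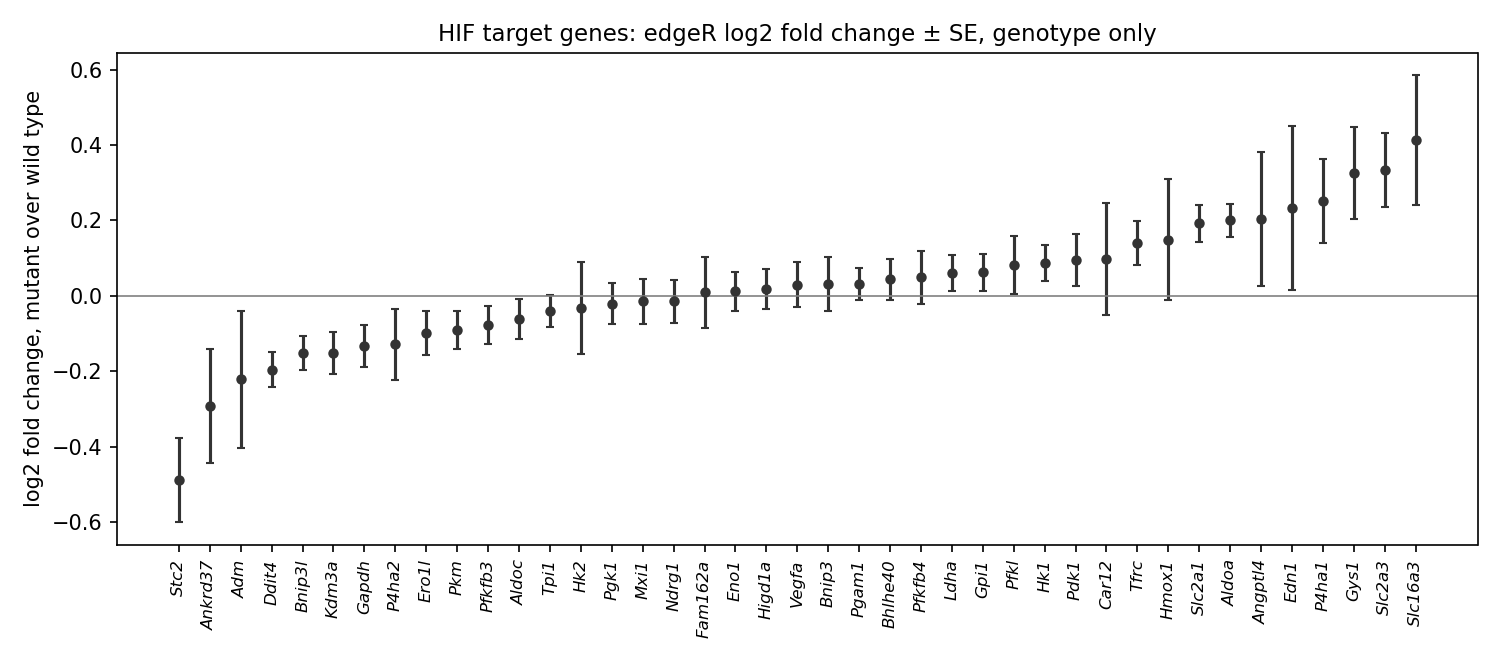
log2 fold change of mutant over wild type ± SE (y axis) from the edgeR fit on genotype alone for the 41 tested HIF target genes with a mean of at least 1 TPM, ordered by their fold change (x axis). Of these, 24 lie above and 17 below 0, from Stc2 at -0.49 to Slc16a3 at 0.41.

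Partners of the pathway outside the family were compared in the same way. Of 19 cofactors and ubiquitin ligase components, edgeR called 0 in both fits, beside 0.0199% and 0.602% of all tested genes. At an unadjusted p under 0.05 stood 2 and 4 of the 19, beside 13.7% of all tested genes in each fit. DESeq2 called 0 of them, beside 2.64% of all genes with an adjusted p there. Their median log2 fold change was -0.06 with 15 of 19 below 0 on genotype alone, and -0.02 with 11 of 19 below 0 with the library set as a term. Of all 20097 tested genes, 9982 and 10350 lay below 0 in these fits, with medians of 0.001 and -0.004. The chaperones Hsp90ab1 and Hsp90aa1, which bind HIF alpha subunits, were the most abundant and stood at -0.05 ± 0.04 and -0.08 ± 0.05 (SE). Cited4, an inhibitor of HIF binding to the coactivators CBP and p300, had the smallest p on genotype alone (0.49 ± 0.15, edgeR adjusted p = 0.25) at a low level of 0.91 to 1.11 CPM in mutants against 0.664 to 0.777 CPM in wild type. With the set as a term the smallest p belonged to Wsb1, a ubiquitin ligase subunit (-0.22 ± 0.05, edgeR adjusted p = 0.0648). The authors' deposited table called 2 of the 19, beside 2.78% of all genes with an adjusted p there. Both were lower in mutants, Wsb1 (log2 fold change -0.199, adjusted p = 0.000853) and Usp33, a deubiquitinase (-0.14, adjusted p = 0.0149). Of 11 other bHLH-PAS genes 10 were tested and edgeR called 0 in both fits. At an unadjusted p under 0.05 stood 3 and 1 of the 10, beside the same 13.7% of all tested genes in each fit. Npas2, a relative of Clock, had the smallest p (0.65 ± 0.17, edgeR adjusted p = 0.223, and 0.36 ± 0.08, adjusted p = 0.0587, with the set as a term). It was the 1 gene of this list called by DESeq2 (adjusted p = 0.0177), by edgeR without mutant replicate 4 (adjusted p = 0.0328) and in the authors' deposited table (adjusted p = 0.0305). Its mutant replicate 4 was at 12.1 CPM against 16.6 to 19.1 CPM in the other mutants. Its wild-type replicate 1 was at 14.2 CPM against 8.84 to 10 CPM in the other wild types. The level of Npas2 was thus higher in set 1, and within each set mutants were also above wild types, with 1 library on one side. The part of the set in its genotype difference was not tested. Npas1 and Arntl, the most abundant of this list, stood at 0.05 ± 0.07 and 0.10 ± 0.05.

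Across the 8 libraries, after each genotype's mean was subtracted, Egln3 varied with Hif1a (Pearson r = 0.86) and against Arnt2 (-0.85) and Vhl (-0.82), while Egln1 varied with Vhl (0.85). Hif3a varied with Egln1 (0.75) and against Hif1a and Egln3 (-0.70 each). These values describe 8 libraries that differ in depth and fall into the 2 library sets, differences that all genes of a library share, and are given without a p. Among 12560 protein-coding genes, those most like Hif3a were Magoh and Las1l (r = 0.982 each), Amd2 (0.981), Mcm7 (0.967) and Etaa1 (0.966). Those most like Epas1 were Kcp (0.985), Myh11 (0.984), Lrpprc and Itga9 (0.969 each) and Tns1 (0.967), of which Myh11 is the smooth muscle myosin and one of the mural cell markers. Those most like Hif1a were Zbtb41 (0.992), C2cd5 and Pola1 (0.990 each), Snapc1 (0.987) and Nampt (0.985). For Egln3 they were Zfp37 (0.996) and Fam222a, Tigd3, Abhd10 and Zfp563 (0.993 each).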

How the data were processed

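Messenger RNA of 8 cortex libraries was analysed. The deposited library files hold, for each transcript, an estimated count (expected count) and TPM, per the file headers. The table of the authors' own comparison was deposited with a normalized mean signal per gene, log2 fold changes, their errors, and raw and adjusted p-values. Per the submitters' processing notes, Salmon 0.12.0, DESeq2 and the GRCm38 build were used. Strand and bias options, and shrinkage in the authors' table, are not stated.

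Estimated counts were summed per gene, rounded and tested with edgeR 4.0.16 in R 4.3.3 (default filter, TMM, quasi-likelihood F test on genotype, Benjamini-Hochberg adjustment over 20097 genes, threshold 0.05). Standard errors are the fold change over the root of F. Where gene IDs shared a symbol, the ID with most reads was used. Library sets come from the sign of principal component 1 (log2 CPM with a prior count of 2). Transcript shares (mean TPM of at least 0.1, mean share of at least 2%) were compared by exact permutation. The fit was tested on simulated data. Of 8 annotated genes that overlap members, 6 are in the files and only Gm42672, within Arnt, passed the filter, at up to 0.521 CPM. Coordinates come from GENCODE M21, whose Epas1 model is a later version than that in the files.

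The members and lists were chosen with earlier results of these data known. All members were named, and of each list the called genes, the gene with the smallest p and the 2 most abundant (3 for markers). The most similar genes were the 5 with the highest r at an average log2 CPM of at least 1. Genes outside this rule (Vegfa, Stc2, Ddit4, Slc2a3, Slc16a3, Usp33) were named after their values were seen, and 1 gene that the rule names is not reported here. Of the other marker lists, microglial genes (8, led by C1qa, C1qc and C1qb) summed to 107.9 to 127.6 TPM in mutants and 95.1 to 106.9 TPM in wild type. Choroid plexus genes (6, led by Ttr, Folr1 and Aqp1) summed to 963.5 to 1345 and 826.6 to 1231 TPM, and red blood cell genes (7, led by Hba-a1, Hbb-bs and Hba-a2) to 4141 to 8056 and 2432 to 10447 TPM. With the library set as a term edgeR called 3 marker genes, beside 0.602% of all tested genes, Acta2 (log2 fold change 0.89) and Aldh1a2 (0.48) as higher and Neurod6 (-0.32) as lower. DESeq2 called the markers Acta2, Apoe, Aqp4, Gja1 and the neuronal Slc17a7 as higher and Neurod2 and Neurod6 as lower, beside 2.64% of all genes with an adjusted p there. Alternatives were another count model, scaling, filter, length offsets, a replicate block, the library set and each library left out.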

Additional observations from a re-analysis of the deposited data

How the results depend on the processing

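The count of members called was 0 on genotype alone and 1 with the library set as a term. It ranged from 0 to 1 when each library was left out, with or without the set as a term, a combination chosen after seeing the data. All other alternatives gave 0. All genes called numbered 4 on genotype alone, 402 with DESeq2, 13 without a filter and 121 with the library set. They ranged from 3 to 699 with each library left out, with 699 when mutant replicate 4 was dropped and 14 when wild-type replicate 1 was. With the set as a term they were 38, 16, 45 and 53 without mutant replicates 1 to 4 in turn, and 19, 56, 66 and 126 without wild-type replicates 1 to 4. HIF targets called were 4 with DESeq2 and 0 to 3 with each library left out, and bHLH-PAS relatives called were 1 with DESeq2 and 0 to 1. The cause was not tested. No transcript share was called under any alternative run. In these runs too, a single share at the smallest possible p could not pass the adjustment, so the lack of calls says little about stability. The log2 fold changes of Hif3a, Epas1 and Egln3 were above 0 and those of Vhl and Arnt2 below 0 under the 15 alternatives listed at the outset: 0.19 to 0.49 for Hif3a, 0.09 to 0.33 for Epas1, 0.11 to 0.31 for Egln3, -0.24 to -0.12 for Vhl and -0.10 to -0.05 for Arnt2. With the set as a term and each library left out, the fold change of Vhl ran from -0.17 to -0.06, the latter without mutant replicate 4, which leaves only set 1 to compare the genotypes. With the replicate number as a block 20 genes were called and 0 members. The numbers did not pair the samples: the correlations of same-numbered deviations were 0.244, -0.027, -0.085 and 0.318, and 4 of 8 libraries correlated best with their own number. Hif3a had the fewest reads of the 9 genes, 304 to 677 per library.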
